A study of Mus musculus with 10 samples.

Results

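The glutathione S-transferases described here are 10 genes of the alpha, mu and pi classes, Gsta1, Gsta2, Gsta3, Gsta4, Gstm1, Gstm2, Gstm3, Gstm6, Gstp1 and Gstp2. They were taken by name from the 39056 genes of a single count table, and all 10 had counts and passed the filter on low counts, which kept 15811 genes. These cytosolic enzymes join the tripeptide glutathione to electrophilic compounds, which makes drugs, carcinogen metabolites and products of lipid peroxidation soluble enough for export. Hepatocytes hold them in large amounts, and several are induced through the oxidant sensor NRF2 or the xenobiotic receptors CAR and PXR. Some are also used as markers of altered liver foci, above all the pi class enzyme in rats.

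Messenger RNA was measured in 4 groups of male C57BL/6 mice, all 11 months old. KO tumours (3 libraries) came from mice lacking the kinase MLK3, which had received diethylnitrosamine (DEN, an alkylating liver carcinogen) and phenobarbital (PB, a tumour promoter that activates CAR), and WT tumours (3 libraries) from wild-type mice treated in the same way. KO liver (2 libraries) and WT liver (2 libraries) came from mice on plain water. DEN had been injected once into the abdominal cavity at 2 weeks of age at 5 µg per g body weight, and PB was supplied at 0.05% in the drinking water from 1 week later until the mice were killed. By the labels the treated samples are tumour tissue, although the protocol for extraction speaks of treated liver, and no treated liver without tumour is among the samples, so tumour and treatment cannot be told apart. The series' design calls the replicates biological. No sequencing batch is given in the labels.

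Total counts per library ran from 12408749 to 18081487, so 3 counts correspond to 0.166 to 0.242 CPM (counts scaled to a common library size). Levels below are CPM after TMM scaling, given per library in the order of the replicate numbers. Each read comes from the 3' end of a transcript, so a level depends little on transcript length and genes can be set side by side. Each log2 fold change is given with its standard error (SE). Unless another tool is named, the adjusted p is that of edgeR's quasi-likelihood test, with Benjamini-Hochberg adjustment over all 15811 genes. A gene was called at an adjusted p under 0.05. The targeted gene Map3k11 had 10.0, 10.3 and 5.84 CPM in KO tumours, 12.2, 9.54 and 14.3 CPM in WT tumours, 5.38 and 5.81 CPM in KO liver and 7.92 and 14.9 CPM in WT liver. It was called in no comparison, and as the deleted part of the gene is unknown from the labels, these 3' tags do not check the knockout. One library stood apart from its group: KO tumour replicate 2 had 3.84 CPM of the tumour marker Afp, against 446 and 169 CPM in the other KO tumours, 146 to 534 CPM in WT tumours and 0.283 to 6.35 CPM in the 4 livers. Most results that rest on it are given with and without it. The summed CPM of 8 hepatocyte markers was 35270 to 43000 in KO tumours, 70610 to 90310 in WT tumours, 43430 to 48070 in KO liver and 40600 to 41140 in WT liver, with none of the 8 at 0 in any group. In WT tumours against WT liver the sum and the list differed in sign: 3 of the 8 markers were higher and 5 lower (3 and 1 of them called), with a median log2 difference of -0.49. In such bulk samples, fewer cells of a type and less RNA per cell cannot be told apart.

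The genes lie in 4 places of the mouse genome (GRCm38). Gsta4 (chr9:78182774-78209349), Gsta1 (chr9:78230656-78242684) and Gsta2 (chr9:78331018-78355788) share a region of chromosome 9, in which Gsta1 and Gsta2 are transcribed from opposite strands. Gsta3 (chr1:21240589-21265661) stands alone on chromosome 1. Gstm6, Gstm3, Gstm2 and Gstm1 follow each other on the minus strand of chromosome 3 (chr3:107938847-108017973). Gstp1 (chr19:4035407-4037985) and Gstp2 (chr19:4040285-4046023) are neighbours on the minus strand of chromosome 19. Several of these copies are alike at their 3' ends, where the tags fall. Of all 50-base stretches in the last 500 bases of the annotated transcripts, 90.0% of those of Gsta1 occur in another gene as well, mostly Gm3776, and 27.7% occur in Gsta2. The share was 62.1% for Gsta2, 78.0% for Gstp1, 55.2% for Gstp2, 23.0% for Gstm1, 11.8% for Gstm6, 10.1% for Gstm2, 0.887% for Gstm3 and 0% for Gsta3 and Gsta4. The sources used here do not state how reads matching several genes were counted, so single values of Gsta1, Gsta2, Gstp1 and Gstp2 are uncertain, and sums over copies are given beside them.

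The upstream sequences of Gsta1 and Gsta2 are shown because these paralogues had log2 differences of opposite sign in WT tumours against WT liver, of which only that of Gsta1 was called. They are not direct neighbours, as Gm3776 and Gm10639 lie between them. The sequences are the 250 bases before the RefSeq start sites on GRCm38.p6 (Gsta1 chr9:78230419-78230668, plus strand; Gsta2 chr9:78347146-78347395, minus strand). Capitals mark bases that differ from the other sequence or have no partner in the 250 bases shown for it. The pair is identical at 184 of 261 aligned positions (70.5%), with 55 mismatches and 22 gaps. The capitals that end Gsta2 are also present in Gsta1, just past the bases shown, so some gaps come from where the sequences were cut.
Gsta1: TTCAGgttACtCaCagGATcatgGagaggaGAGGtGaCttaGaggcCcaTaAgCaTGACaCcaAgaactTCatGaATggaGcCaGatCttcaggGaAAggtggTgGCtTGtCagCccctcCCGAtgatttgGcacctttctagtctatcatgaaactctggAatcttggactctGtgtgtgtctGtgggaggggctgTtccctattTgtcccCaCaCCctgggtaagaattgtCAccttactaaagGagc
Gsta2: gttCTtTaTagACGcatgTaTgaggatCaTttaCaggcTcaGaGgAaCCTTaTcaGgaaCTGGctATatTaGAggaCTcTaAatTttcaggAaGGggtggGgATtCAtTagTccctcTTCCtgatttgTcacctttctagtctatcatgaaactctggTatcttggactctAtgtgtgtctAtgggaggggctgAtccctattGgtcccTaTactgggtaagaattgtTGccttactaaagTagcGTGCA

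The upstream sequences of Gsta3, Gstp1 and Gstp2 are shown because Gsta3 and Gstp2 were the most firmly measured members with a difference, and Gstp1 is the neighbour that Gstp2 most resembles (Gsta3 chr1:21240335-21240584, plus strand; Gstp1 chr19:4037913-4038162 and Gstp2 chr19:4042222-4042471, minus strand; RefSeq, GRCm38.p6). Capitals mark matches on either strand to TGANNNNGC, a wide form of the antioxidant response element to which NRF2 binds.
Gsta3: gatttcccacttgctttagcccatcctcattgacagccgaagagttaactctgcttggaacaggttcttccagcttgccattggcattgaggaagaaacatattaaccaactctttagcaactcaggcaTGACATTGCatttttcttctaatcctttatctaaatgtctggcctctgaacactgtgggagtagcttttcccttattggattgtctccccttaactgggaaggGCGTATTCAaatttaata
Gstp1: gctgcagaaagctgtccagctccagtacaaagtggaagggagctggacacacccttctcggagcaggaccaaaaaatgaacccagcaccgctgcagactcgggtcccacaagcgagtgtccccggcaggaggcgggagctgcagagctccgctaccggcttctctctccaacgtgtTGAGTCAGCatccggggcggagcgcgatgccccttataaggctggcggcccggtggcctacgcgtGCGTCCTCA
Gstp2: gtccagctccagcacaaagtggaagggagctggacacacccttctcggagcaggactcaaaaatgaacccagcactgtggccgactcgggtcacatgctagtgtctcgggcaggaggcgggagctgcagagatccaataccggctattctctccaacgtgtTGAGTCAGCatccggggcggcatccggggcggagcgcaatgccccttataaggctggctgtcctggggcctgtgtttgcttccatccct

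Of the 10 members, 9 had a RefSeq window, which runs on to 50 bases past the start site. Each motif was searched on both strands. The narrower core TGACNNNGC of the antioxidant response element was found in the window of Gsta3, with its left edge at position -121 from the start site, and in no other window of the members. It is present in 12.4% of all promoter windows of that length, against 41.3% for the wide form TGANNNNGC. The wide form was found in 5 members, Gsta1 (left edge at -126), Gsta3, Gstm3, Gstp1 and Gstp2. In the Gsta1 sequence above it is not marked, since capitals there show differences from Gsta2. Gstp1 and Gstp2 hold an AP-1 site (TGANTCA, in 7.81% of windows) at -74 and -89, inside the 9 bases that also match the wide form. The core of the xenobiotic response element (GCGTG, in 32.4% of windows) was found for Gsta1, Gsta2, Gstm1 and Gstp1, and the TCF/LEF core (CTTTGNNC, in 17.2% of windows) for Gstm3, Gstp1 and Gstp2. A match is a string of letters in a window and says nothing about binding.

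In WT liver, 3 genes carried nearly all of the family's counts. Gstp2 made up 43.6% of the counts of the 10 members, Gsta3 30.7% and Gstm1 20.8%, and no other member exceeded 1.4%. In WT tumours the order was Gstm1 with 55.7%, Gstp2 with 22.5% and Gsta3 with 11.5%, followed by Gsta1 with 3.22%. KO tumours had Gstp2 at 34.9%, Gstm1 at 30.5% and Gsta3 at 25.9%, and KO liver had Gstp2 at 43.9% and Gsta3 and Gstm1 at 25.2% each. The sum over all 10 members was 4701 ± 727 CPM in KO tumours, 4613 ± 1851 CPM in WT tumours, 5366 ± 160 CPM in KO liver and 5669 ± 897 CPM in WT liver (SD; n = 3, 3, 2 and 2). The group means of the family total differed by less than the SD among WT tumours, while its make-up differed by class.

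**Figure D1:**
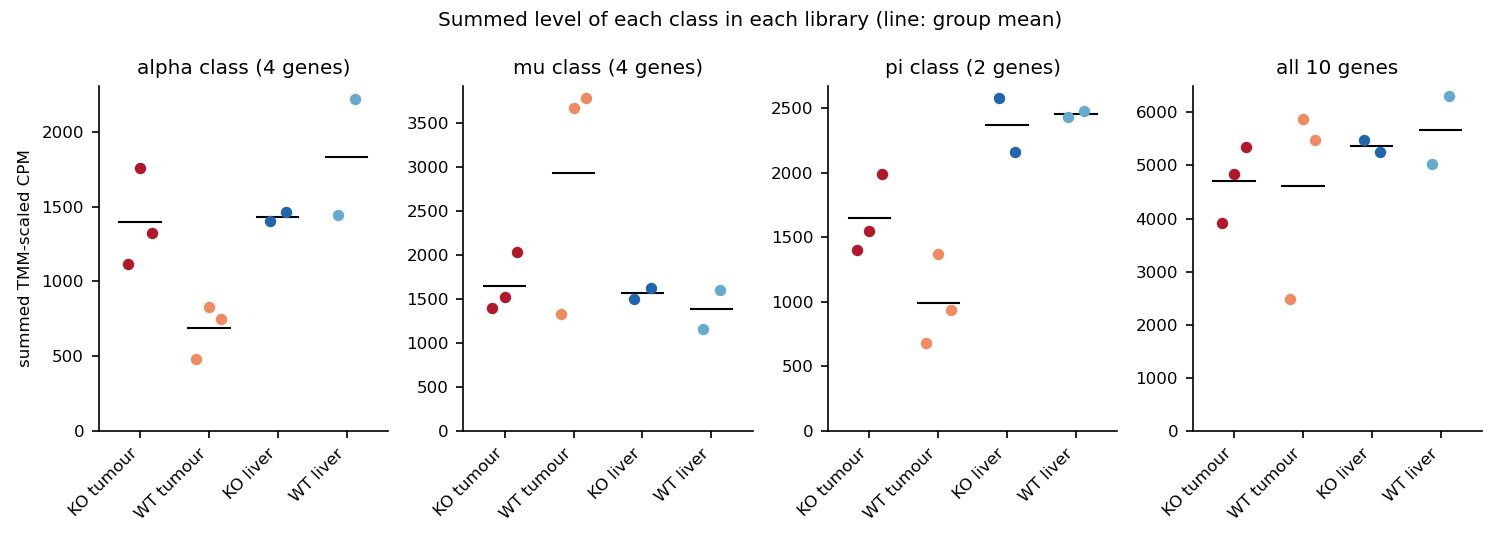
Summed TMM-scaled CPM of the alpha class (4 genes), mu class (4 genes), pi class (2 genes) and all 10 genes; each point is a library, grouped as KO tumour, WT tumour, KO liver and WT liver, and each line a group mean. The alpha class sum is 485 to 829 CPM in WT tumours and 1115 CPM or more in every other library, and the pi class sum is 678 to 1372 CPM in WT tumours and 1405 CPM or more elsewhere.

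The first comparison, of WT tumours with WT liver, describes the family in tumours that arose with MLK3 present. Gsta1 rose and Gsta3 and Gstp2 fell. These 3 calls compare with backgrounds of 3.64% of the 15811 genes called higher and 4.7% called lower. A further 4 members had an unadjusted p under 0.05 (7 of 10 in all, against 21.4% of all genes) without passing the adjusted threshold. The libraries of both groups did not overlap for 7 members, 2 of them higher and 5 lower in WT tumours, against 37.3% of all genes with no overlap in either direction.

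Gsta1 (ENSMUSG00000074183.3), an alpha class enzyme known in mice as inducible by antioxidants and xenobiotics, had 67.8, 189 and 204 CPM in WT tumours and 7.23 and 20.9 CPM in WT liver. All WT tumours were above both WT livers. The difference was 10.9-fold (log2 3.45, SE 0.81, adjusted p = 0.014), and without WT liver replicate 1 it no longer passed the test (log2 2.88, adjusted p = 0.092). Without WT liver replicate 2 it was larger (log2 4.40, adjusted p = 0.018). Its near-copy Gm3776 had 0 to 13.5 CPM in the 10 libraries, and counts of both summed gave a log2 difference of 3.41 (adjusted p = 0.0081).

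Gsta2 (ENSMUSG00000057933.10), the paralogue of Gsta1 in the same region, had 2.55, 18.1 and 7.76 CPM in WT tumours and 25.6 and 49.7 CPM in WT liver. Every WT tumour was below both WT livers, but the difference missed the threshold (log2 -2.0, SE 0.62, adjusted p = 0.062; adjusted p = 0.026 by DESeq2). It passed in edgeR in 4 of the 10 fits that leave out a library, among them those without WT tumour replicate 2 (log2 -2.89, adjusted p = 0.013) and without WT liver replicate 1 (-2.40, adjusted p = 0.046), and was -1.45 without WT liver replicate 2 (adjusted p = 0.30). With counts of Gsta1 and Gsta2 summed, the comparison gave a log2 difference of 1.65 (adjusted p = 0.074), since the sum joins a higher and a lower gene. The balance within the pair is described further below.

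Gsta3 (ENSMUSG00000025934.15), the main alpha class transferase of mouse liver and known for detoxifying the aflatoxin epoxide, had 387, 571 and 503 CPM in WT tumours and 1386 and 2135 CPM in WT liver. The groups were far apart, with the highest WT tumour below the lowest WT liver. It was 3.61-fold lower in WT tumours (log2 -1.85, SE 0.28, adjusted p = 0.00052). Its 3' end has no 50-base stretch in common with another annotated transcript. Gsta4 (ENSMUSG00000032348.6), which conjugates hydroxynonenal from lipid peroxidation, had 27.4, 51.0 and 35.5 CPM in WT tumours and 25.9 and 14.5 CPM in WT liver. Its values did not overlap, with a log2 difference of 0.91 that did not pass the test (SE 0.37, adjusted p = 0.17).

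Among mu class genes, Gstm1 (ENSMUSG00000058135.12), the main mu class enzyme of mouse liver, had 1174, 3412 and 3387 CPM in WT tumours and 1005 and 1364 CPM in WT liver. Replicate 1 of the WT tumours lay within the range of WT liver and the other two far above it. The log2 difference was 1.17 (SE 0.37, adjusted p = 0.067), and it passed the test by DESeq2 (adjusted p = 0.013) and in edgeR without WT tumour replicate 1 (log2 1.51, adjusted p = 0.0024). Gstm3, a less abundant mu class gene, had 62.3, 121 and 214 CPM in WT tumours and 24.1 and 65.1 CPM in WT liver, with a log2 difference of 1.57 (SE 0.53, adjusted p = 0.087; adjusted p = 0.026 by DESeq2). It passed in edgeR without WT liver replicate 2 (log2 2.46, adjusted p = 0.032) and without WT tumour replicate 1 (log2 1.91, adjusted p = 0.039), and was about 1.03 without WT liver replicate 1 or WT tumour replicate 3 (adjusted p = 0.40 and 0.30). Here too the lowest WT tumour fell inside the range of WT liver. Gstm6 was at 42.7 to 63.0 CPM in WT tumours and 71.3 to 87.5 CPM in WT liver (log2 -0.64, SE 0.34, adjusted p = 0.29). Gstm2 overlapped widely, at 46.5 to 126 CPM in WT tumours and 61.1 to 90.8 CPM in WT liver (log2 0.23, 95% interval -0.57 to 1.03).

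For the pi class, Gstp2 (ENSMUSG00000038155.10) had 676, 1366 and 932 CPM in WT tumours and 2421 and 2470 CPM in WT liver. All WT tumours were well below both livers, and the difference was 2.47-fold (log2 -1.30, SE 0.27, adjusted p = 0.0064). Gstp1 had 2.60, 6.41 and 1.92 CPM in WT tumours and 7.85 and 7.19 CPM in WT liver, without overlap (log2 -1.05, SE 0.73, adjusted p = 0.44). Gstp1 took 0.206% to 0.467% of the counts of the pair in the 10 libraries, although it is usually described as the more active pi class gene of mice. Since the 3' ends of both are so alike, the class is best read as a sum: Gstp1, Gstp2 and Gstp3 together gave a log2 difference of -1.30 (adjusted p = 0.0066), and Gstp1 and Gstp2 with the pseudogene Gstp-ps gave -1.29 (adjusted p = 0.0067).

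**Figure D2:**
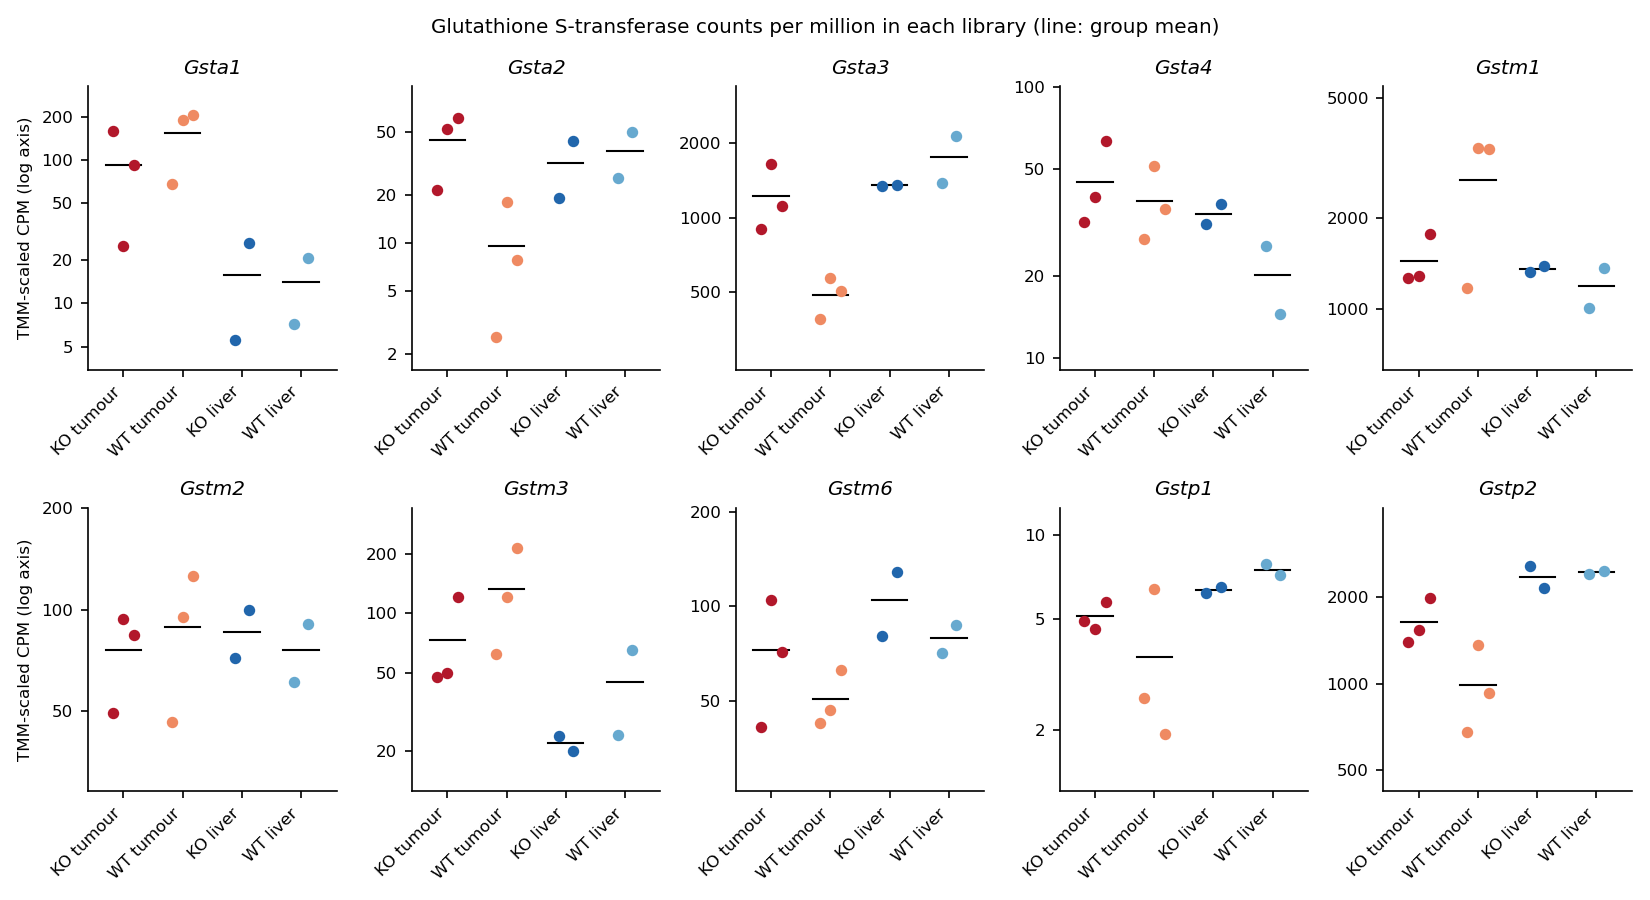
TMM-scaled CPM (log axis) of the 10 members; each point is a library, in the order KO tumour, WT tumour, KO liver and WT liver, and each line a group mean. Gsta3 lies at 387 to 571 CPM in WT tumours and at 902 CPM or more in every other library, while Gsta1 is at 67.8 CPM or more in WT tumours and at 26.2 CPM or less in all livers and in KO tumour replicate 2.

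KO tumours were set against KO liver to ask the same question in mice without MLK3. None of the 10 members was called by edgeR, where 0.0759% of all genes were called higher and 0% lower. At an unadjusted p under 0.05 there were 2 members, Gsta1 and Gstm3 (against 9.61% of all genes). DESeq2 called Gstm3 alone, where it called 427 of 14774 genes in all. The groups did not overlap for 3 members, Gstm3 higher and Gstp1 and Gstp2 lower in KO tumours, against 26.7% of all genes.

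Gsta1 had 159, 25.0 and 92.4 CPM in KO tumours and 5.55 and 26.2 CPM in KO liver. KO tumour replicate 2 lay within the range of KO liver and the other two above it. The log2 difference was 2.54 (SE 0.77, adjusted p = 0.26), and without KO tumour replicate 2 it was 2.99 (adjusted p = 0.055). Over all fits that leave out a library it ran from 1.82 without KO liver replicate 1 to 4.05 without KO liver replicate 2, and it was called in none of them. Gstm3 had 47.7, 50.0 and 121 CPM in KO tumours and 23.9 and 20.1 CPM in KO liver, every tumour being above both livers. Its log2 difference of 1.73 (SE 0.54) had an adjusted p of 0.27 in edgeR and 0.049 by DESeq2.

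None of the 3 large transferases was called between KO tumours and KO liver, which does not show that they were alike. Gsta3 had 902, 1644 and 1110 CPM in KO tumours and 1349 and 1356 CPM in KO liver (log2 -0.15, 95% interval -0.74 to 0.44). Only KO tumour replicate 2 was above the livers, and without it the log2 difference was -0.43 (adjusted p = 0.56). Gstm1 had 1258, 1278 and 1762 CPM in KO tumours and 1321 and 1382 CPM in KO liver (log2 0.08, 95% interval -0.68 to 0.85). Gstp2 had 1400, 1542 and 1983 CPM in KO tumours and 2571 and 2152 CPM in KO liver, all tumours being lower (log2 -0.52, 95% interval -1.10 to 0.05, adjusted p = 0.55). Gsta2 had 21.6, 51.7 and 60.4 CPM in KO tumours and 19.2 and 43.8 CPM in KO liver (log2 0.50, SE 0.63). The remaining Gsta4, Gstm2, Gstm6 and Gstp1 had log2 differences between -0.53 and 0.39, none of them with an unadjusted p under 0.05.

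In KO liver against WT liver, which asks what the loss of MLK3 does without carcinogen, no member was called by edgeR or by DESeq2, and none had an unadjusted p under 0.05, against 7.28% of all genes. Across all genes edgeR called 0% higher and 0.00632% lower. The 2 libraries of each group did not overlap for 4 members (Gsta4 higher; Gsta3, Gstm3 and Gstp1 lower in KO liver), against 31% of all genes. Gstm3 had the largest log2 difference among the 10, -1.02 (95% interval -2.22 to 0.18), and Gsta4 the largest positive one, 0.76 (95% interval -0.10 to 1.61). For Gstp2 the interval ran from -0.69 to 0.59, and for Gsta3 from -1.03 to 0.27.

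KO tumours were then compared with WT tumours, where treatment is the same and genotype differs. These are the same tumour libraries as above, so the differences are not independent of the earlier ones. Gsta3 and Gsta2 were called, both higher in KO tumours, where edgeR called 3.25% of all genes higher and 1.27% lower. There were 4 members with an unadjusted p under 0.05, against 14.9% of all genes, and 3 whose groups did not overlap (Gsta2, Gsta3 and Gstp2, all higher in KO tumours), against 23.1% of all genes.

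Gsta3, with 902, 1644 and 1110 CPM in KO tumours against 387, 571 and 503 CPM in WT tumours, was 2.50-fold higher (log2 1.32, SE 0.25, adjusted p = 0.0057). The lowest KO tumour was above the highest WT tumour. Without KO tumour replicate 2, which had the highest value, the log2 difference was 1.05 (adjusted p = 0.022). Gsta2, with 21.6, 51.7 and 60.4 CPM in KO tumours against 2.55, 18.1 and 7.76 CPM in WT tumours, was 4.73-fold higher (log2 2.24, SE 0.58, adjusted p = 0.041). Its groups did not overlap, yet the call was lost without KO tumour replicate 2 (log2 2.12, adjusted p = 0.13), without KO tumour replicate 3 (1.96, adjusted p = 0.17), without WT tumour replicate 1 (1.80, adjusted p = 0.097) and without WT tumour replicate 3 (2.13, adjusted p = 0.14). Without WT tumour replicate 2 it was 3.13 (adjusted p = 0.01). Summed with its near-copy Gm10639, Gsta2 gave 2.22 (adjusted p = 0.036).

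Gstp2 was at 1400, 1542 and 1983 CPM in KO tumours against 676, 1366 and 932 CPM in WT tumours, without overlap and short of the threshold (log2 0.73, SE 0.25, adjusted p = 0.13). Gstm1 was at 1258 to 1762 CPM in KO tumours and 1174 to 3412 CPM in WT tumours (log2 -0.89, SE 0.32, adjusted p = 0.17). Leaving out WT tumour replicate 1, which is low for both of the large mu and pi genes, gave -1.23 for Gstm1 (adjusted p = 0.006). Gsta1 overlapped between the groups, at 25.0 to 159 CPM in KO tumours and 67.8 to 204 CPM in WT tumours (log2 -0.73, 95% interval -2.05 to 0.59). The remaining Gsta4, Gstm2, Gstm3, Gstm6 and Gstp1 had log2 differences between -0.86 and 0.52 with adjusted p-values of 0.40 or more.

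Whether the tumour-to-liver difference itself depended on genotype was tested with the interaction, the difference in KO mice minus that in WT mice. Gsta3 was the 1 member called (log2 1.70, SE 0.40, adjusted p = 0.046), where 1.22% of all genes were called higher and 0.367% lower. A further 2 had an unadjusted p under 0.05 (3 in all, against 12.7% of all genes), Gsta2 (log2 2.50, SE 0.89, adjusted p = 0.24) and Gstm1 (log2 -1.08, SE 0.51, adjusted p = 0.39). The Gsta3 call lies close to the threshold. It was kept in 3 of the 10 fits that leave out a library, with log2 values of 1.36 to 1.99 over all of them, and without KO tumour replicate 2 it was 1.43 (adjusted p = 0.066). For Gsta1, which was called in WT but not in KO tumours, the interaction gave -0.90 (95% interval -3.02 to 1.21), and a difference between the genotypes was therefore not shown. The median log2 value of the 10 members was -0.21 in WT tumours against WT liver (all genes 0.09), -0.03 in KO tumours against KO liver (0.06), 0.06 in KO liver against WT liver (0), 0.36 in KO against WT tumours (-0.03) and 0.14 in the interaction (0.03).

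**Figure D3:**
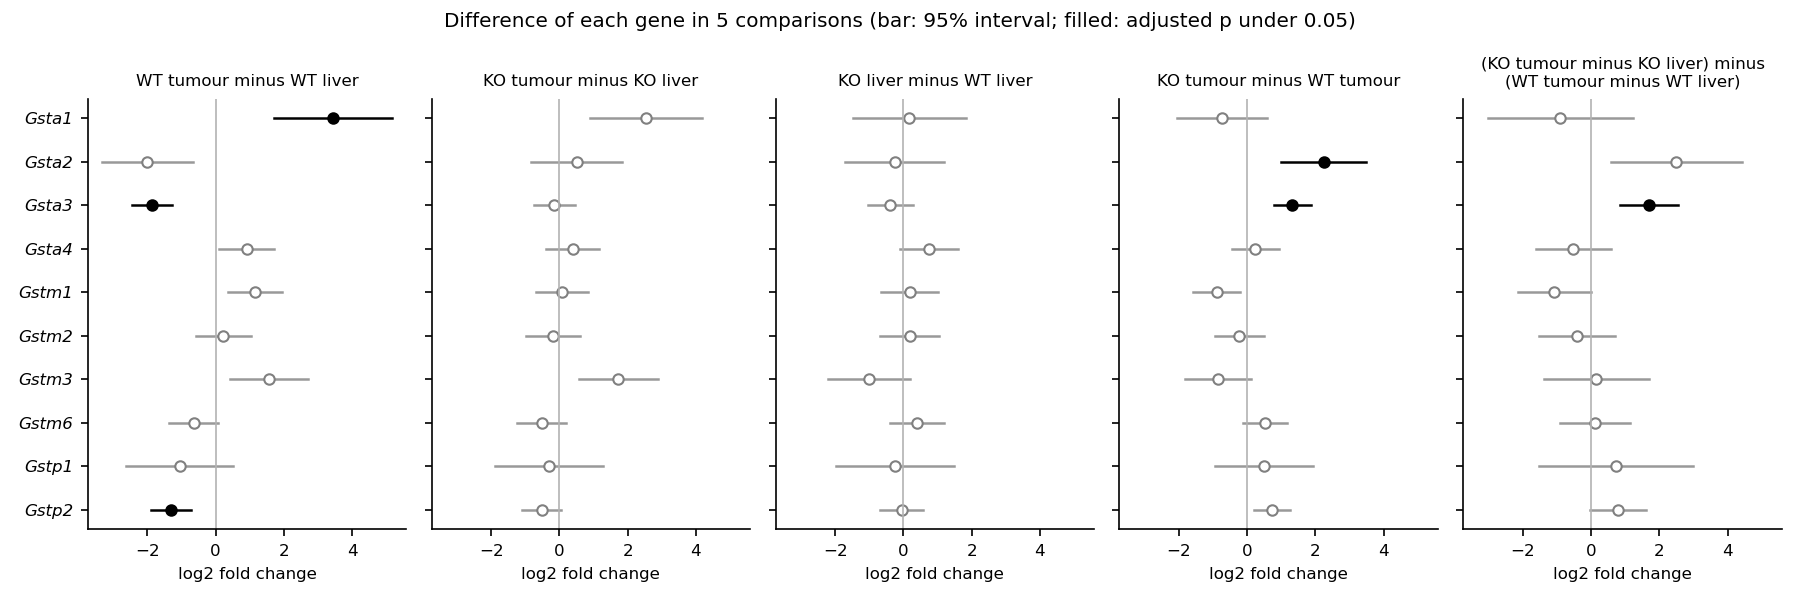
Log2 fold change of the 10 members in WT tumour minus WT liver, KO tumour minus KO liver, KO liver minus WT liver, KO tumour minus WT tumour, and the interaction (the tumour-to-liver difference in KO mice minus that in WT mice); points are edgeR estimates, bars 95% intervals, and filled points have an adjusted p under 0.05. Filled points are Gsta1, Gsta3 and Gstp2 in the WT tumour panel, Gsta2 and Gsta3 in the panel of KO against WT tumours, and Gsta3 in the last panel.

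The balance between Gsta1 and Gsta2 was also compared. Gsta1 took 88.1%, 32.6% and 60.5% of the counts of both genes in KO tumours, 96.4%, 91.2% and 96.3% in WT tumours, 22.5% and 37.4% in KO liver and 22.0% and 29.6% in WT liver. The half-width of the 95% Wilson interval was at most 4.17 points, and it covers counting error only, since reads without molecular identifiers are not independent molecules. All 3 WT tumours were above every other library, the livers lay at 37.4% or less, and KO tumours spread from the liver range (replicate 2) to near the WT tumours (replicate 1). KO tumour replicate 2 is also the one with the low Afp value. No test was run on this share, which was chosen after the values of both genes were seen. The share of reads that could belong to either gene was not tested.

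**Figure D4:**
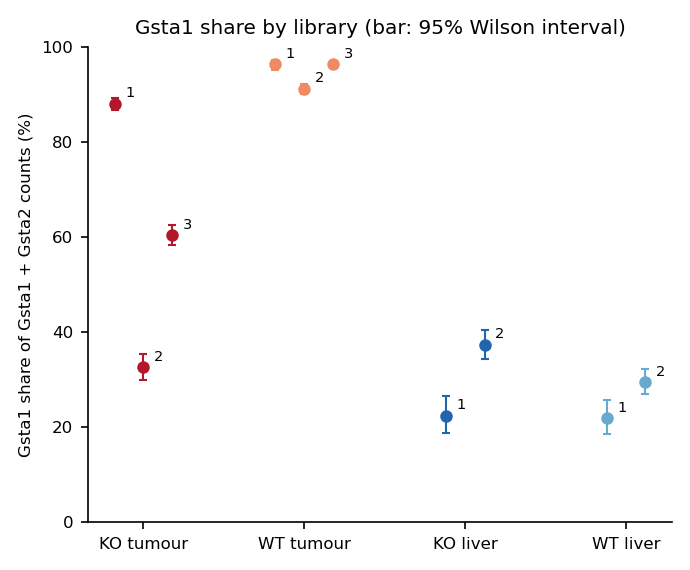
Gsta1 share of the summed Gsta1 and Gsta2 counts (%) in KO tumour, WT tumour, KO liver and WT liver; each point is a library with its replicate number, and bars are 95% Wilson intervals. WT tumours lie at 91.2% to 96.4%, livers at 22.0% to 37.4%, and KO tumours at 32.6%, 60.5% and 88.1%.

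Genes outside the 10 members with the most similar course over the 10 libraries were found for the 4 members called in any comparison. The measure was the root mean square difference of centred log2 CPM among 7636 genes with a mean of at least 10 CPM. For Gsta3 they were Cyp4f15 (0.17), Sec14l2 (0.18) and Pdp2 (0.18), where Gsta3 itself varied by 0.77 around its mean. For Gstp2 they were the pseudogene Gstp-ps (0.17), Slc16a10 (0.18) and Pja1 (0.18), with 0.61 for Gstp2 itself. Gstp-ps is a processed copy of a pi class gene, and 41.7% of the 50-base stretches at the 3' end of Gstp2 occur in it, so the counts of both may hold the same reads. The nearest to Gsta2 were Gm4737 (0.59), Homer2 (0.59) and Nox4 (0.60), against 1.33 for Gsta2. For Gsta1 they were Rpl17 (0.50), Pold4 (0.78) and Ptpre (0.81), against 1.79 for Gsta1. The difference of the nearest genes from Gsta3 and Gstp2 was thus several times smaller than the own variation of these members. For Gsta1 this held for Rpl17 alone, and for Gsta2 it held less.

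Other glutathione transferases of the kappa, omega, theta, zeta and microsomal kinds, together with further alpha, mu and pi genes, formed a list of 25, of which 23 were in the table and 21 were tested. Counts for this list and those that follow compare with the shares of all genes called. These were 3.64% higher and 4.7% lower in WT tumours against WT liver, and 3.25% and 1.27% in KO against WT tumours. In the interaction they were 1.22% and 0.367%. At an unadjusted p under 0.05 the shares were 9.61% in KO tumours against KO liver, 7.28% between the livers and 12.7% in the interaction. Counts by DESeq2 compare with its own totals, which were larger than those of edgeR. It called 427 of 14774 genes in KO tumours against KO liver, 202 of 14002 between the livers and 727 of 14002 in the interaction. In WT tumours against WT liver 4 fell (Mgst1, Gstk1, Gstt3 and Gstz1) and 1 rose (Gstt2). Of 19 alternative fits, Mgst1 and Gstk1 were called in all, Gstt3 in 18, Gstt2 in 18 (not without WT liver replicate 1, adjusted p = 0.11) and Gstz1 in 13 (adjusted p up to 0.17). The median log2 difference of the 21 was 0.23, against 0.09 for all genes and -0.21 for the 10 members. For KO tumours against KO liver edgeR called 0 of the 21, with 4 at an unadjusted p under 0.05 and 0 by DESeq2. Without KO tumour replicate 2 edgeR called 1 of them, Gstk1, lower in KO tumours (adjusted p = 0.0098). In that fit it called 189 of 15658 genes higher and 13 lower in this comparison. In KO against WT tumours that fit called 345 higher and 114 lower, and in the interaction 170 and 49. Counts without that library, here and below, compare with these numbers. In KO liver against WT liver edgeR also called 0, with 1 at an unadjusted p under 0.05 and 0 by DESeq2. KO tumours against WT tumours had 3 that rose (Mgst1, Gstt3 and Gstk1) and 0 that fell, and the same 3 rose without KO tumour replicate 2. In the interaction 2 were called, Mgst1 and Gstt3, both more positive in KO mice, and 1 of them without that library.

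Mgst1, a membrane-bound transferase and peroxidase of the endoplasmic reticulum, was lowest in WT tumours, as Gsta3 was. It had 2250, 2150 and 1779 CPM in KO tumours, 584, 585 and 609 CPM in WT tumours, 1918 and 2068 CPM in KO liver and 2082 and 2292 CPM in WT liver. The WT tumours stood far below the other 7 libraries. The log2 difference of WT tumours from WT liver was -1.88 (SE 0.20, adjusted p = 2.8e-05), that of KO from WT tumours 1.80 (SE 0.19, adjusted p = 2.9e-05), and the interaction 1.93 (SE 0.29, adjusted p = 0.0022). All 3 calls were kept in each of the 19 alternative fits that were run for this gene.

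Gstt3, a theta class enzyme, had 165, 236 and 259 CPM in KO tumours, 74.3, 90.0 and 74.3 CPM in WT tumours, 163 and 183 CPM in KO liver and 154 and 238 CPM in WT liver. It was lower in WT tumours than in every other library (log2 -1.30 against WT liver, SE 0.25, adjusted p = 0.0039; log2 1.47 for KO against WT tumours, SE 0.23, adjusted p = 0.0013). The difference from WT liver was not called without WT liver replicate 2 (log2 -0.95, adjusted p = 0.073). The interaction for Gstt3 (log2 1.65, SE 0.36, adjusted p = 0.031) was called in 12 of 19 alternative fits, and the others, all of which leave out a library, had adjusted p-values up to 0.13. The mitochondrial and peroxisomal kappa enzyme Gstk1 had 81.3, 195 and 89.3 CPM in KO tumours, 44.7, 40.6 and 40.4 CPM in WT tumours, 181 and 239 CPM in KO liver and 209 and 236 CPM in WT liver. KO tumours 1 and 3 were thus between WT tumours and livers, and KO tumour replicate 2 within the liver range (log2 1.54 for KO against WT tumours, SE 0.29, adjusted p = 0.0053). The Gstk1 difference between KO and WT tumours was called in all 19 alternative fits, at log2 values of 1.03 to 1.76. The interaction for Gstk1 was 1.63 (SE 0.45, adjusted p = 0.10).

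**Figure D5:**
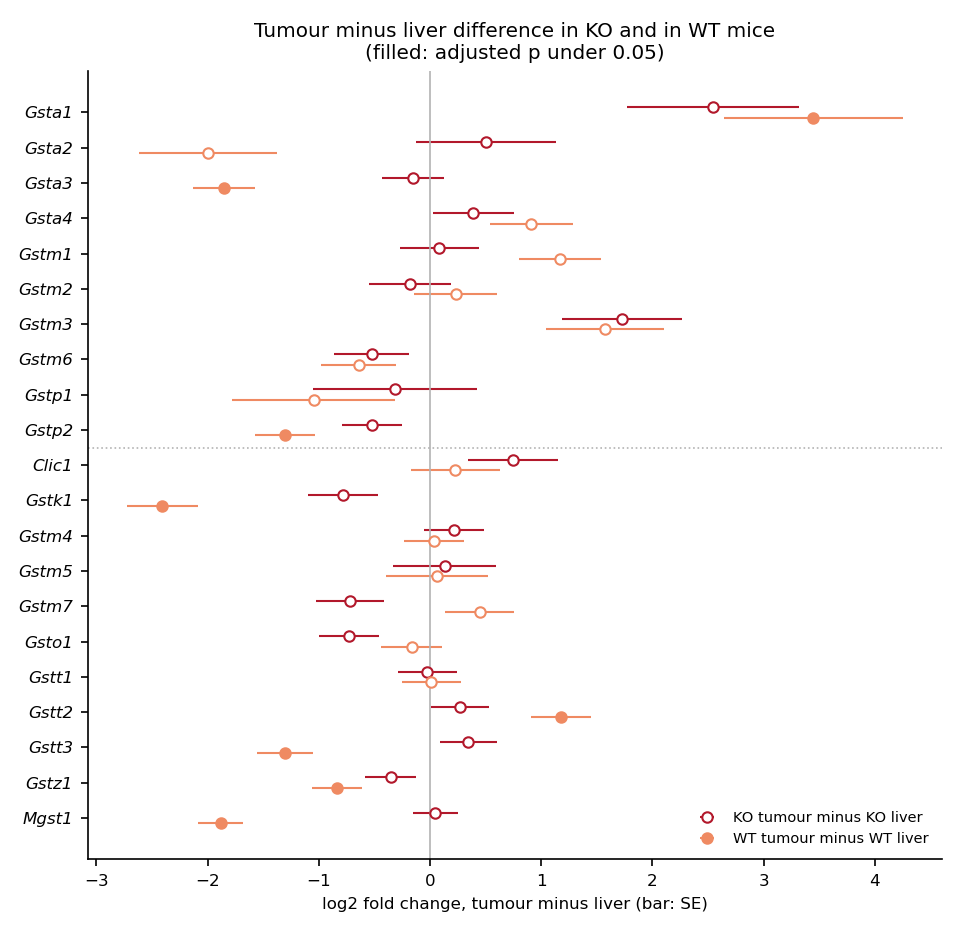
Tumour minus liver log2 fold change of the 10 members (above the dotted line) and of the 11 other tested transferases with a mean of at least 10 CPM (below it), in KO mice and in WT mice; bars are SE and filled points have an adjusted p under 0.05. Gsta3, Gstt3 and Mgst1, the transferases called in the interaction, are at -1.85, -1.30 and -1.88 in WT mice and at -0.15, 0.34 and 0.05 in KO mice.

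Genes that make, recycle and spend glutathione or its precursors formed a list of 37, of which 35 were tested. In WT tumours against WT liver 3 rose and 9 fell (3.64% and 4.7% of all genes), with a median log2 difference of -0.0027. Those with the smallest p were Gnmt, a glycine methyltransferase that consumes methyl groups (301.5 ± 89.4 CPM in WT tumours and 3043 ± 844 CPM in WT liver), the glutathione peroxidase Gpx1 (687 ± 261 and 3487 ± 708 CPM in the same groups) and Cth, which makes cysteine from cystathionine (65.1 ± 6.21 and 318 ± 107 CPM; SD, n = 3 and 2), all of them lower in WT tumours. In KO tumours against WT tumours 8 rose and 1 fell, with Gnmt at 1643 ± 422 CPM, Gpx1 at 2785 ± 217 CPM and Cth at 205 ± 54.4 CPM in KO tumours (SD, n = 3). Without KO tumour replicate 2 these counts were 4 and 0. The same 3 genes were called in the interaction, which without KO tumour replicate 2 called 3 of the list higher and 1 lower. Within KO mice and between the livers edgeR called none, with 3 and 2 genes at an unadjusted p under 0.05 and 1 and 0 called by DESeq2. Without KO tumour replicate 2 edgeR called 1 higher and 0 lower in KO tumours against KO liver.

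Of 31 tested NRF2 targets, 8 rose and 4 fell in WT tumours against WT liver, with a median log2 difference of 0.43 against 0.09 for all genes. Sulfiredoxin (Srxn1), which repairs overoxidised peroxiredoxins, was at 387 ± 85.4 CPM in WT tumours and 62.9 ± 0.410 CPM in WT liver (log2 2.62, SE 0.37, adjusted p = 0.00032). The carbonyl reductase Cbr3 was also higher (log2 5.72, SE 1.12, adjusted p = 0.0043), while peroxiredoxin 6 (Prdx6) was lower (log2 -1.18, SE 0.21, adjusted p = 0.002). Against WT tumours, 2 rose and 3 fell in KO tumours (1 and 3 without KO tumour replicate 2). Srxn1 was among the lower ones (140 ± 69.3 CPM in KO tumours, log2 -1.47, SE 0.30, adjusted p = 0.0091). Between KO tumours and KO liver edgeR called 0, with 6 at an unadjusted p under 0.05 and 3 by DESeq2, and in the livers 0, with 2 and 0. Without KO tumour replicate 2 edgeR called 2 higher and 0 lower in KO tumours against KO liver. The interaction called 0, with 7 at an unadjusted p under 0.05 and 3 by DESeq2.

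Of 30 tested targets of CAR and PXR, the receptors through which PB acts, 5 rose and 11 fell in WT tumours against WT liver, with a median log2 difference of -0.69. Cyp2b9 was at 68.2 ± 4.82 CPM in WT tumours and 0.063 ± 0.089 CPM in WT liver. It was the 1 gene of the list that edgeR called in KO tumours against KO liver, with 8.61 ± 5.79 CPM in KO tumours and no count in KO liver. Without KO tumour replicate 2 edgeR called 2 of the list higher and 0 lower in that comparison. Cyp2c37 and Aldh1a1 were the most firmly lower ones in WT tumours (log2 -4.23, SE 0.41, and -3.43, SE 0.35; adjusted p = 1.1e-05 and 2.1e-05). Against WT tumours, 11 rose and 2 fell in KO tumours, led by Cyp2c37, Cyp2c29 and Cyp2c54, and without KO tumour replicate 2 there were 8 and 2. In the livers edgeR called 0, with 2 at an unadjusted p under 0.05 and 0 by DESeq2. In the interaction it called 7 higher and 1 lower (6 and 1 without KO tumour replicate 2). The list thus did not move in 1 direction in WT tumours. Cyp2c37 is a steroid and fatty acid hydroxylase and Aldh1a1 oxidises retinal.

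Genes expressed around the central vein or driven by Wnt signalling formed a list of 30, all tested. In WT tumours against WT liver 16 fell and 0 rose, among them glutamine synthetase (Glul, 92.0 ± 32.7 CPM in WT tumours and 1331 ± 242 CPM in WT liver) and ornithine aminotransferase (Oat). The median log2 difference was -2.26. In KO tumours against WT tumours 15 rose and 0 fell (13 and 0 without KO tumour replicate 2), with a median of 1.70, and Glul was at 832 ± 87.2 CPM in KO tumours. Between KO tumours and KO liver edgeR called 0, with 2 at an unadjusted p under 0.05 and 1 by DESeq2, and in the livers 0, with 2 and 0. Without KO tumour replicate 2 edgeR called 0 higher and 1 lower in KO tumours against KO liver. The interaction called 11 higher and 0 lower (10 and 0 without KO tumour replicate 2). Several transferases are themselves known to be zoned along the lobule, and their part in these differences was not tested.

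Markers of other cells were measured beside these results. The summed CPM of 10 cholangiocyte markers was 60.7 to 295 in KO tumours, 295 to 525 in WT tumours, 72.4 to 85.6 in KO liver and 98.1 to 127 in WT liver, with Cftr at 0 in KO tumours and Cldn7 at 0 in both liver groups. The 12 macrophage markers summed to 665 to 1025 CPM in KO tumours, 708 to 1088 CPM in WT tumours, 484 to 768 CPM in KO liver and 483 to 508 CPM in WT liver, with none at 0. The WT tumours, in which Gsta3 and Mgst1 were lowest, thus had cholangiocyte sums that met the KO tumours only at 295 CPM. Their hepatocyte sums were also the highest, although 5 of the 8 hepatocyte markers were below WT liver. The 10 endothelial markers summed to 357 to 401 CPM in KO tumours, 364 to 457 CPM in WT tumours, 346 to 403 CPM in KO liver and 334 to 436 CPM in WT liver, overlapping in all groups. T and NK cell markers (10 genes) summed to 22.8, 5.86 and 57.9 CPM in KO tumours, 50.4, 13.3 and 46.3 CPM in WT tumours, 5.26 to 8.0 CPM in KO liver and 5.68 to 6.35 CPM in WT liver, and Klrb1c and Cd8a had no count in either liver group. Neutrophil markers (6 genes) summed to 200.4, 19.0 and 146 CPM in KO tumours, 55.1 to 217 CPM in WT tumours, 11.5 to 12.6 CPM in KO liver and 23.9 to 24.4 CPM in WT liver, with Ly6g at 0 in WT tumours and both liver groups. Both sums were above the livers in every tumour but KO tumour replicate 2. Red blood cell markers (5 genes) summed to 3348 to 4682 CPM in KO tumours, 2439 to 4791 CPM in WT tumours, 2514 to 2974 CPM in KO liver and 1876 to 2028 CPM in WT liver. Sums of stellate cell markers (275 to 653.5 CPM in WT tumours, 405 to 444 CPM in WT liver) and of B cell markers (21.0 to 114 and 9.49 to 34.3 CPM in the same groups) overlapped between WT tumours and WT liver. The part of these cells in the transferase differences was not tested.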

How the data were processed

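RNA from 10 mouse samples was made into 3' tag libraries from 50 ng of total RNA, per the labels' protocols. The authors deposited 1 table of raw counts per gene for all samples, with Ensembl gene IDs. BWA, featureCounts and mm10 are named in the submitters' processing notes; the sources used here state no versions, annotation, strand setting or treatment of reads with several matches. All sample columns were used. Of the 39056 IDs, 38872 were paired with a symbol and 184 were not. Gene positions and 3' ends came from GENCODE M21 on GRCm38, and promoter windows from RefSeq on GRCm38.p6.

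Counts were tested in R 4.3.3 with edgeR 4.0.16 (filterByExpr, TMM scaling, quasi-likelihood test) in 1 model of the 4 groups, with 15811 genes tested, 6 residual degrees of freedom and a prior of 8.78. DESeq2 1.42.0 was an alternative, and limma 3.58.1 was loaded by edgeR. The common biological coefficient of variation was 71.8%. The procedure was tested on simulated data, with changes set in genes with a mean of at least 10 CPM. Changes of 2-fold were recovered in 14.1% of cases for WT tumours against WT liver and 17% for KO tumours against KO liver. Between the livers it was 4.23%, in KO against WT tumours 17.6% and in the interaction 1.22%. Changes of 8-fold were recovered in 70.7% (interaction) to 98.5% (KO against WT tumours). Other alternatives were other scalings and filters, a replicate block, fits of the compared groups alone, summed copies and leaving out each library. All 8 pairs of libraries within groups differed beyond sampling noise (chi-square per degree of freedom 39.8 to 94.9).

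The members and gene lists were chosen with earlier results of these data known. All 10 members were named, any tested gene of the other transferases could be, and from each other list the 3 called genes with the smallest p in a comparison, or the 2 with the smallest p where none was called. Genes of similar course were the 3 with the smallest difference, computed with a prior count of 2. The AP-1 and wide antioxidant motifs were added after the other 3 had been searched.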

Additional observations from a re-analysis of the deposited data

Results flagged for a closer look

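For 14 of the named genes the tumour-to-liver difference in KO mice departed from that in WT mice by edgeR's interaction test with Benjamini-Hochberg adjustment over all genes, given here as KO minus WT on the log2 scale. Over all genes, 1.22% were called higher and 0.367% lower in this test. The naming rule takes list genes with the smallest p in each comparison, the interaction included, so the number 14 follows from that choice and is no result by itself. Among transferases these were Gsta3 (1.70), Gstt3 (1.65) and Mgst1 (1.93). The call was kept for Gsta3 in 3 of the 10 fits that leave out a library, for Gstt3 in 12 of 19 alternatives and for Mgst1 in 19 of 19. Among genes of glutathione supply they were Gpx1 (2.57), Cth (2.01) and Gnmt (2.81). Among targets of CAR and PXR they were Cyp2c29 (3.91), Cyp2c37 (4.59), Cyp2c54 (5.92) and Aldh1a1 (3.00), with Cyp2a4 in the opposite direction (-3.82). Among pericentral and related genes they were Glul (3.59), Oat (4.41) and Cyp27a1 (2.37). All of them rest on the same 10 libraries.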

How the results depend on the processing

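The calls of Gsta3 (WT tumours against WT liver, KO against WT tumours) and of Gstp2 (WT tumours against WT liver) were kept under all alternatives run for them. For WT tumours against WT liver the number of members called higher was 1, but 3 with DESeq2, without the filter and with total counts as scaling, 2 with a mean of at least 10 CPM, 0 with Gsta1 and Gsta2 summed and 0 to 3 with a library left out. Between KO tumours and KO liver it was 0, but 1 with DESeq2 and 2 without the filter. In KO against WT tumours it was 2 higher, but 1 with Gsta1 and Gsta2 summed and with the compared groups alone and 1 to 3 with a library left out, and 0 lower, but 2 without the filter and 0 to 1 with a library left out. In the interaction it was 1, but 2 without the filter, 0 with total counts and 0 to 1 with a library left out. Summed with Gm3776 in place of Gsta2, Gsta1 stayed called in WT tumours against WT liver (log2 3.41, adjusted p = 0.0081). Gsta2 summed with Gm10639 stayed called in KO against WT tumours (log2 2.22, adjusted p = 0.036). The fit without the filter had an infinite prior, so no spread of single genes enters its p-values.

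Over all genes, WT tumours against WT liver gave 2384 calls with DESeq2, against 575 higher and 743 lower in edgeR. With total counts the split was 920 higher and 496 lower, and the median log2 difference of all genes was 0.36 in place of 0.09. KO tumours against KO liver gave 12 calls, but 427 with DESeq2, 386 without the filter, 22 with total counts, 1 with at least 10 CPM, 0 with these groups alone, 3 to 202 with a library left out and 202 without KO tumour replicate 2. KO liver against WT liver gave 1, but 202 with DESeq2, 111 without the filter, 0 with at least 10 CPM or these groups alone and 0 to 9 with a library left out. KO against WT tumours gave 715, but 1220 with DESeq2, 1181 without the filter and 459 to 816 with a library left out. The interaction gave 251, but 727 with DESeq2 and 635 without the filter. The cause was not tested.

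Over all genes, same-numbered samples did not deviate together (r of -0.00615 to 0.0238 over 13 pairs). Deviations were taken from group means, so in the groups of 2 libraries they mirror each other. The check therefore cannot decide whether the numbers pair the samples for some genes. With the replicate block the interaction called 2 members higher, Gsta3 (1.63, adjusted p = 0.029) and Gsta2 (2.73, adjusted p = 0.028), and Gsta2 was lower in WT tumours than in WT liver (-2.40, adjusted p = 0.0027). Under the block, Gstm2 in WT tumours against WT liver turned to -0.052 and Gstm1 in KO tumours against KO liver to -0.12.

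No called value changed sign. With total counts, Gstp2 between the livers turned to 0.001 and Gstm6 in the interaction to -0.013. With a library left out, log2 ranges that crossed 0 were found in WT tumours against WT liver for Gstm2 (-0.12 to 0.54). They were also found in KO tumours against KO liver for Gsta3 (-0.43 to 0.026), Gstm1 (-0.092 to 0.17) and Gstm2 (-0.39 to 0.072). They were also found in KO liver against WT liver for Gsta1 (-1.34 to 1.12), Gsta2 (-0.98 to 0.29), Gstm1 (-0.018 to 0.42), Gstm2 (-0.08 to 0.49) and Gstp2 (-0.19 to 0.07). They were also found in KO against WT tumours for Gsta4 (-0.10 to 0.53) and Gstm2 (-0.53 to 0.12). They were also found in the interaction for Gsta1 (-1.86 to 0.61), Gstm3 (-0.73 to 0.71) and Gstm6 (-0.24 to 0.50).

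Depth was 12408749 counts or more per library. Whether depth, the number of libraries or the shared 3' ends of Gsta1, Gsta2, Gstp1 and Gstp2 limits these results most was not tested. Summing with Gm3776, Gm10639 and Gstp-ps and the list counts without KO tumour replicate 2 were chosen after seeing the data.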
